A study of Mus musculus with 7 samples.

Results

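The genes described here make or handle the lubricants of the joint: lubricin (Prg4), the hyaluronan synthases Has1, Has2 and Has3, the hyaluronan receptor Cd44, the hyaluronan-modifying protein Tnfaip6 (TSG-6), and the breakdown proteins Hyal1, Hyal2 and Cemip. They were grouped by function, and all 9 were found by Entrez number among the 27179 genes of the expression table. Their transcripts were measured by RNA sequencing in skinned ankles of DBA1 mice, an inbred strain, with collagen-induced arthritis, in which immunisation with collagen provokes joint inflammation. Into the joints of 4 ankles went a lipoplex, a lipid carrier, loaded with synthetic miR-17-5p, a microRNA (the mimic), and into 3 ankles one holding an irrelevant control microRNA, so that both groups carry arthritis, injection and lipid carrier. The age and sex of the mice, the dose, the interval to dissection and whether ankles of a group came from different mice are not stated in the labels used here. P-values therefore measure the spread among these 7 libraries, which may be technical in part. Levels are FPKM (fragments per kilobase of exon, scaled to the library's total), which are per length and can therefore be compared between genes.

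Lubricin is a mucin-like glycoprotein that fibroblasts of the synovial lining and chondrocytes of the cartilage surface secrete, and it keeps cartilage surfaces sliding at low friction. Hyaluronan is a long sugar polymer that synthases at the cell membrane spin directly into the surrounding fluid, where it gives synovial fluid its viscosity. Cells hold it through receptors such as Cd44, Tnfaip6 transfers protein chains onto it during inflammation, and hyaluronidases and Cemip cut it into fragments. In inflamed joints hyaluronan chains are known to become shorter.

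The injected mimic acts through its seed, the stretch at bases 2 to 8 that pairs with messenger RNA, so the seed and the letters opposite it are shown first. The mature mouse sequence in RefSeq (GRCm38.p6, chr14:115043684-115043706, plus strand) carries the seed in capitals:
miR-17-5p: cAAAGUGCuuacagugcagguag

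A seed match of 7 bases, GCACTTT, stood in the longest annotated 3′ UTR (GENCODE M21) of Has2 and of Hyal2, and 6-base matches, CACTTT, stood in those of Has2, Cd44, Tnfaip6 and Cemip. The windows below are 30 bases long, on the strand of the messenger RNA, with the match in capitals, and they are shown for the genes whose levels are compared below. They lie at chr15:56667375-56667404 and chr15:56667022-56667051 (Has2, minus strand), chr2:52056106-52056135 (Tnfaip6, plus strand), chr2:102812586-102812615 (Cd44, minus strand), chr7:83935259-83935288 (the first of 3 in Cemip, minus strand) and chr9:107572304-107572333 (Hyal2, plus strand), all on GRCm38.
Has2 7-base match: tcttggcttatGCACTTTtcccttactgtg
Has2 6-base match: tctggcaaaataCACTTTtgttcttttata
Tnfaip6 6-base match: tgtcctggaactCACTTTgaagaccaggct
Cd44 6-base match: ttctaagggtccCACTTTtactgttgacta
Cemip 6-base match: gatttccatagtCACTTTcagatacattaa
Hyal2 7-base match: tacctgcagaaGCACTTTcgctgccagtgc

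The Hyal2 match lay in 1 of its 4 annotated 3′ UTRs. That 3′ UTR has 1621 bases, whereas all Hyal2 exons joined have 1849, so in other transcripts these bases may be coding sequence. The Hyal2 match is included in the counts that follow. Cd44 held a 6-base match in 4 of its 7 annotated 3′ UTRs, and Has2 had a single annotated 3′ UTR. Matches of 7 or 8 bases were found for 2 of the 9 genes, against 22.1% of 12511 tested genes with an annotated 3′ UTR, and matches of at least 6 bases for 5 of the 9, against 42.1%. Both shares were close to those of all genes. The letters of a match do not show that the microRNA binds there. For Prg4, Has1, Has3 and Hyal1 these letters were not found in any annotated 3′ UTR.

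The 7 libraries held 27465276 to 31118975 reads assigned to genes. Of 13418 genes that averaged 1 FPKM or more, 0 passed the comparison of mimic with control ankles at an adjusted p under 0.05 (limma, Benjamini-Hochberg over all genes tested), which is 0% of them, and 2356 had an unadjusted p under 0.05. Markers of ankle tissues were present in every library: Col2a1 of cartilage had at least 26.5 FPKM, Bglap of bone at least 17.2 FPKM and Tnmd of tendon at least 36.4 FPKM. Each was higher in every mimic than in every control library, as were 6.48% of all genes tested. Col2a1 ran from 44.6 to 62.3 FPKM in mimic and from 26.5 to 39.4 FPKM in control ankles. Bglap ran from 98.8 to 188 FPKM and from 17.2 to 91.9 FPKM, and Tnmd from 69.3 to 97.8 FPKM and from 36.4 to 57.9 FPKM. Whether tissue content differed was not tested. Leaving out control replicate 2 gave 318 passing genes in place of 0, and leaving out any other single library gave 0.

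Prg4 stood far above the other 8 genes, with 1175 ± 256 FPKM over the 7 libraries (SD), and ranked between 17 and 58 among all genes of a library. Cd44 followed at 44.7 ± 12.5 FPKM, then Hyal2 at 23.1 ± 1.38 FPKM, Tnfaip6 at 22.3 ± 7.53 FPKM, Has1 at 15.2 ± 3.97 FPKM, Has2 at 11.3 ± 5.98 FPKM, Cemip at 10.7 ± 1.63 FPKM, Hyal1 at 4.59 ± 0.38 FPKM and Has3 at 0.24 ± 0.12 FPKM. Hyal2 exceeded Tnfaip6 in 4 of 7 libraries and Has2 exceeded Cemip in 3 of 7, so neither pair had a fixed order. Has1 lay above Has2 in 6 of 7 libraries, and Tnfaip6 above Has1 in all 7 although their ranges overlapped. The ranges of the other neighbours in this order were separate.

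**Figure D1:**
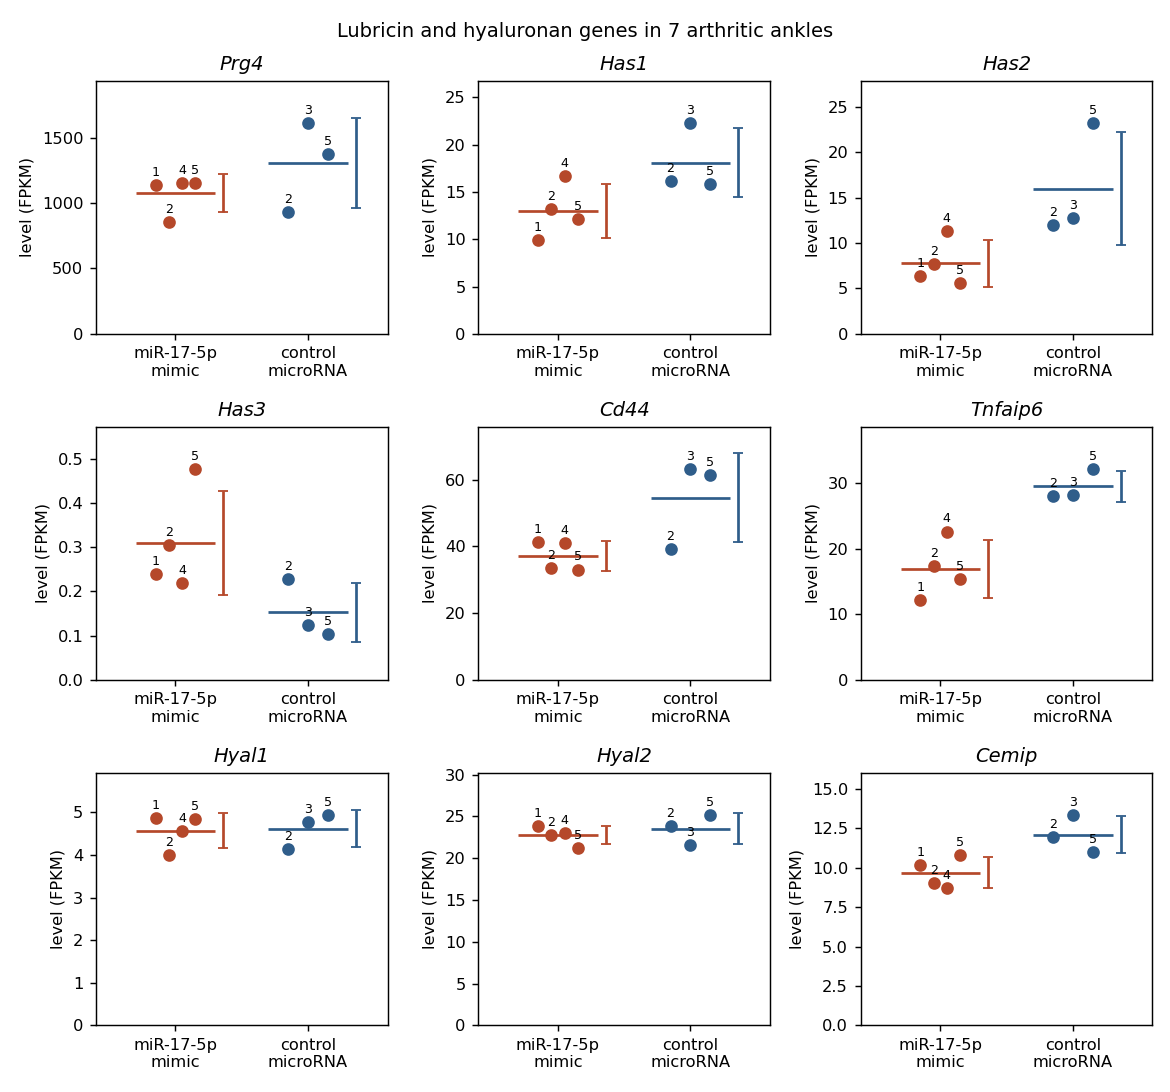
Level of each of the 9 genes in each ankle (FPKM, linear axes from 0), mimic left and control right; points are libraries with their replicate numbers, long lines are group means and bars at the side are 1 SD (n = 4 and 3). The groups are separate for Has2, Tnfaip6 and Cemip, all lower in mimic ankles, and overlap for the other 6 genes.

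Of the 8 genes tested, all had a lower mean in mimic ankles. Their median log2 fold change was -0.39, against -0.0063 over all genes tested, of which 51.7% had a lower mean. None of the 8 passed over all genes tested. At an unadjusted p under 0.05, 5 were lower in mimic ankles (Has1, Has2, Cd44, Tnfaip6 and Cemip), where 10.1% of all genes tested were lower at that level and 7.48% higher. In 3 of the 8 (Has2, Tnfaip6 and Cemip) every mimic library lay under every control library, as in 8.84% of all genes tested; the reverse held in 0 of the 8 and in 6.48% of all genes tested. The ninth gene, Has3, was under 1 FPKM and was not part of that fit. Since whole ankles were sequenced, fewer cells of a type and less RNA per cell cannot be told apart.

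Prg4 (Entrez 96875, mm10 chromosome 1, 150449412 to 150466165, minus strand) stood at 1140, 859, 1156 and 1155 FPKM in mimic replicates 1, 2, 4 and 5, against 929, 1611 and 1376 FPKM in control replicates 2, 3 and 5. The groups overlapped, since control replicate 2 was lower than 3 of the mimic ankles, and the controls were more widely spread. The means were 1077 ± 146 FPKM in mimic ankles (SD, n = 4) and 1305 ± 346 FPKM in control ankles (SD, n = 3), giving a log2 fold change of -0.25 with SE 0.21 (95% confidence interval -0.74 to 0.24, limma adjusted p = 0.544). The interval holds both no difference and a decrease to 0.60 of the control level. In the table, 204 exon bases of Prg4, 4.77% of its exon length, overlap exons of Tpr on the opposite strand, whose mean was 19.1 FPKM, and the labels used here do not state whether counting used the strand.

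The synthases had lower summed levels in mimic ankles, and Has2 had the lowest fold change of the tested synthases. Has2 (Entrez 15117, chromosome 15, 56665627 to 56694546, minus strand), whose 3′ UTR holds both matches printed above, stood at 6.42, 7.66, 11.4 and 5.59 FPKM in mimic replicates 1, 2, 4 and 5, against 12.0, 12.8 and 23.2 FPKM in control replicates 2, 3 and 5. Every mimic ankle was lower than every control ankle, by a narrow gap between mimic replicate 4 and control replicate 2, and control replicate 5 stood apart as the highest. The log2 fold change was -0.98 (SE 0.29, 95% confidence interval -1.66 to -0.31, limma adjusted p = 0.193), which did not pass. Of the Has2 exon length, 182 bases overlap the antisense gene Has2os, which averaged 2.09 FPKM.

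Has1 (Entrez 15116, chromosome 17, 17843326 to 17855188, minus strand), a synthase known to be induced by cytokines in human synovial fibroblasts, stood at 9.91, 13.2, 16.7 and 12.2 FPKM in mimic ankles, against 16.2, 22.3 and 15.8 FPKM in control ankles, each in the order of replicates above. Mimic replicate 4 lay above 2 of the controls, and its Has1 and Has2 were the highest of the mimic group. The log2 fold change of Has1 was -0.47 (SE 0.19, 95% confidence interval -0.90 to -0.035, limma adjusted p = 0.261). Has3 (Entrez 15118, chromosome 8, 106870242 to 106882902, plus strand), a synthase that makes shorter chains, was scarce, with 0.24, 0.30, 0.22 and 0.48 FPKM in mimic ankles and 0.23, 0.12 and 0.10 FPKM in control ankles. These levels rest on at most 82 reads in a library. The groups overlapped, and the mean log2 level was higher by 0.31 in mimic ankles (exact 2-sided permutation test over 35 splits, p = 0.114, where the smallest p possible is 0.0286).

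Summed over the 3 synthases, the level was 21.1 ± 5.16 FPKM in mimic ankles (SD, n = 4) and 34.3 ± 5.41 FPKM in control ankles (SD, n = 3), with a highest mimic value of 28.3 FPKM and a lowest control value of 28.5 FPKM. Has1 made up 59.0% to 66.7% of this sum in mimic ankles and 40.5% to 63.3% in control ankles. Control replicate 5 was the single library in which Has2 exceeded Has1. Set against the summed level of Hyal1, Hyal2 and Cemip, the synthase sum was 0.57 ± 0.15 in mimic ankles and 0.85 ± 0.12 in control ankles, with overlapping ranges.

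**Figure D2:**
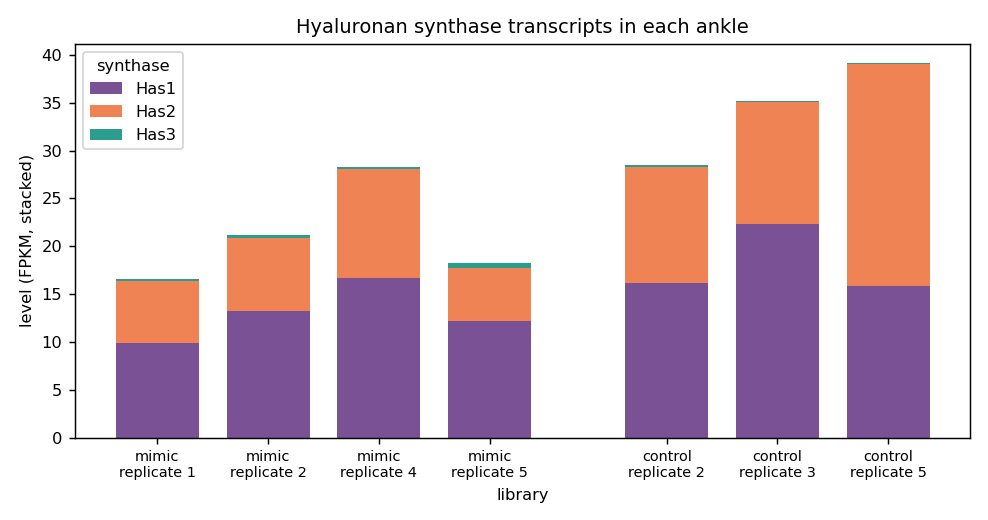
Stacked levels (FPKM) of Has1, Has2 and Has3 in each library, mimic ankles left and control ankles right. The sums run from 16.6 to 28.3 FPKM in mimic ankles and from 28.5 to 39.2 FPKM in control ankles, and Has3 is hardly visible at this scale.

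Cd44 (Entrez 12505, chromosome 2, 102811141 to 102901665, minus strand), the main cell surface receptor for hyaluronan, found on leukocytes as well as fibroblasts, stood at 41.3, 33.6, 41.0 and 33.1 FPKM in mimic replicates 1, 2, 4 and 5. In control replicates 2, 3 and 5 it stood at 39.2, 63.2 and 61.4 FPKM. Control replicate 2 lay within the mimic range, while the other 2 controls lay well above it. The log2 fold change was -0.52 (SE 0.18, 95% confidence interval -0.94 to -0.10, limma adjusted p = 0.223). Without control replicate 2 it was -0.74 (SE 0.11, limma adjusted p = 0.0409), so that Cd44 was then the 1 gene of the 8 to pass, where 1.51% of all genes tested passed as lower in mimic ankles. Splice forms of Cd44 differ in function and were summed in the deposited table.

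Tnfaip6 (Entrez 21930, chromosome 2, 52038113 to 52056681, plus strand) encodes TSG-6, a secreted protein induced by inflammatory cytokines that links the heavy chains of inter-alpha-inhibitor to hyaluronan. It had the smallest p of the 9 genes. Its levels were 12.2, 17.3, 22.6 and 15.4 FPKM in mimic replicates 1, 2, 4 and 5, against 28.0, 28.2 and 32.2 FPKM in control replicates 2, 3 and 5. Every mimic ankle was lower than every control ankle, and here control replicate 2 stood with the other controls. The means were 16.9 ± 4.36 FPKM and 29.5 ± 2.32 FPKM in mimic and control ankles, a log2 fold change of -0.82 (SE 0.19, 95% confidence interval -1.25 to -0.38, limma adjusted p = 0.174). The value did not pass over all genes tested.

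The start regions of the genes with separate groups are shown because these are the windows in which regulators of inflammatory genes are often sought. RefSeq (GRCm38.p6) start regions, 250 bases before to 50 after the start, were available for 6 of the 9 genes. Among the genes with separate groups these were Tnfaip6 (chr2:52037863-52038162, plus strand) and Cemip (chr7:84086456-84086755, minus strand), printed on the strand of the gene with motif matches in capitals. For Tnfaip6 the capitals mark first TTCTGAGAA, a match to the STAT motif TTCNNNGAA, and then TGAGTCA, a match to the AP-1 motif TGANTCA, and for Cemip they mark the 1 match to the NF-kB motif.
Tnfaip6: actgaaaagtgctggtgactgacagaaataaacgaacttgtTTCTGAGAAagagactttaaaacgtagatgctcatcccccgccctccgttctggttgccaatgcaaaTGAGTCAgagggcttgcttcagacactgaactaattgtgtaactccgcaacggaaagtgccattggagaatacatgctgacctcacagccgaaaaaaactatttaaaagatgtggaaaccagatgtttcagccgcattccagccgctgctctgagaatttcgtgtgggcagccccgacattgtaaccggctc
Cemip: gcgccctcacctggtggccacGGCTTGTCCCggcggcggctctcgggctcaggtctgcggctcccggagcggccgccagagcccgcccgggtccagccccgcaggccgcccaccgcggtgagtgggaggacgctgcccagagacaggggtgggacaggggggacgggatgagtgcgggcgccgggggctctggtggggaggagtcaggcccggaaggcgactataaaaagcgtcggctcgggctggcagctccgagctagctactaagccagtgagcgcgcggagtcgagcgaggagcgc

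Searched on both strands, the STAT motif was in 8.30% of 32851 RefSeq start regions, the AP-1 motif in 7.81% and the NF-kB motif GGGANNNNCC, which a reverse-strand match writes as GGNNNNTCCC, in 20.7%. A C/EBP motif, TTGCNNAA, was in 10.8% and a CRE motif, TGACGTCA, in 1.79%. Of the 6 genes, Tnfaip6 held the STAT and AP-1 motifs, Has1 the C/EBP and CRE motifs, Cemip and Hyal2 the NF-kB motif, and Cd44 and Hyal1 held none of the 5. The matches printed or named here do not overlap one another. A match is a description of letters and shows no binding.

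Among the breakdown proteins, the groups were separate for Cemip and overlapped for the hyaluronidases Hyal1 and Hyal2, and none of these passed. Cemip (Entrez 80982, chromosome 7, 83932857 to 84086505, minus strand), also called HYBID, is needed for hyaluronan depolymerisation by fibroblasts. It stood at 10.2, 9.03, 8.71 and 10.8 FPKM in mimic replicates 1, 2, 4 and 5, against 12.0, 13.4 and 11.0 FPKM in control replicates 2, 3 and 5. Every mimic ankle was lower than every control ankle, with mimic replicate 5 and control replicate 5 nearly equal. The log2 fold change was -0.31 (SE 0.098, 95% confidence interval -0.54 to -0.079, limma adjusted p = 0.21).

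Hyal2 (Entrez 15587, chromosome 9, 107569163 to 107572778, plus strand), a membrane-anchored hyaluronidase that begins the cutting of long chains, stood at 23.8, 22.8, 23.1 and 21.2 FPKM in mimic ankles and at 23.8, 21.6 and 25.2 FPKM in control ankles. The groups overlapped almost wholly. Its log2 fold change was -0.047 (SE 0.071, 95% confidence interval -0.21 to 0.12, limma adjusted p = 0.735), so levels under 0.86 or over 1.09 times those of control ankles lay outside the interval. Hyal1 (Entrez 15586, chromosome 9, 107576952 to 107580137, plus strand), the lysosomal hyaluronidase that finishes the fragments, stood at 4.87, 4.00, 4.57 and 4.85 FPKM in mimic ankles and at 4.13, 4.78 and 4.94 FPKM in control ankles. Its log2 fold change was -0.013 (SE 0.094, 95% confidence interval -0.23 to 0.21, limma adjusted p = 0.95).

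The wider hyaluronan pathway was followed through 31 other genes, of which 22 were tested and 9 were not, since they averaged under 1 FPKM. None of the 22 passed over all genes tested. Their median log2 fold change was -0.12, with 14 lower and 8 higher means in mimic ankles, against a median of -0.0063 and 51.7% lower means over all genes tested. At an unadjusted p under 0.05, 6 were lower and 1 higher in mimic ankles, where 10.1% of all genes tested were lower and 7.48% higher. Every mimic ankle lay under every control ankle at 3 of the 22, as in 8.84% of all genes tested, and above at 0, as in 6.48%.

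Among proteins that bind hyaluronan or its partners, Ptx3, a pentraxin that stabilises hyaluronan matrix together with TSG-6, had the smallest p. It stood at 28.6, 26.9, 33.9 and 29.5 FPKM in mimic replicates 1, 2, 4 and 5, against 45.6, 105 and 124 FPKM in control replicates 2, 3 and 5. The mimic ankles were close together and all below the controls, which were widely spread. The log2 fold change was -1.49 (SE 0.31, limma adjusted p = 0.174). Vcan, the proteoglycan versican of inflamed matrix, averaged 12.4 ± 2.39 FPKM in mimic ankles and 20.9 ± 6.97 FPKM in control ankles, with overlapping groups (log2 fold change -0.69, SE 0.25, limma adjusted p = 0.238). Habp4, an intracellular protein named for its hyaluronan binding, averaged 16.0 ± 0.82 FPKM and 13.5 ± 1.83 FPKM in mimic and control ankles (log2 fold change 0.25, SE 0.093, limma adjusted p = 0.248). Itih2, which encodes a heavy chain that TSG-6 can transfer to hyaluronan, had a difference of 0.29 on the log2 scale (SE 0.15, limma adjusted p = 0.344).

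Among receptors, Hmmr, which binds hyaluronan and also takes part in mitotic spindles, averaged 4.26 ± 0.46 FPKM in mimic ankles and 6.99 ± 1.77 FPKM in control ankles, with separate groups (log2 fold change -0.63, SE 0.16, limma adjusted p = 0.176). Layn, a membrane receptor, had a difference of -0.34 on the log2 scale (SE 0.12, limma adjusted p = 0.232) and Stab2, a scavenger receptor of sinusoidal endothelium that clears hyaluronan, one of 0.29 (SE 0.15, limma adjusted p = 0.358). In the supply of sugar precursors, Uap1, which makes UDP-N-acetylglucosamine, averaged 41.1 ± 2.13 FPKM and 55.1 ± 10.9 FPKM in mimic and control ankles, again with separate groups (log2 fold change -0.40, SE 0.12, limma adjusted p = 0.203). Gfpt1, which feeds the same route, had a log2 difference of -0.15 (SE 0.081, limma adjusted p = 0.36). In breakdown, Gusb, the lysosomal beta-glucuronidase, had -0.26 (SE 0.099, limma adjusted p = 0.246).

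**Figure D3:**
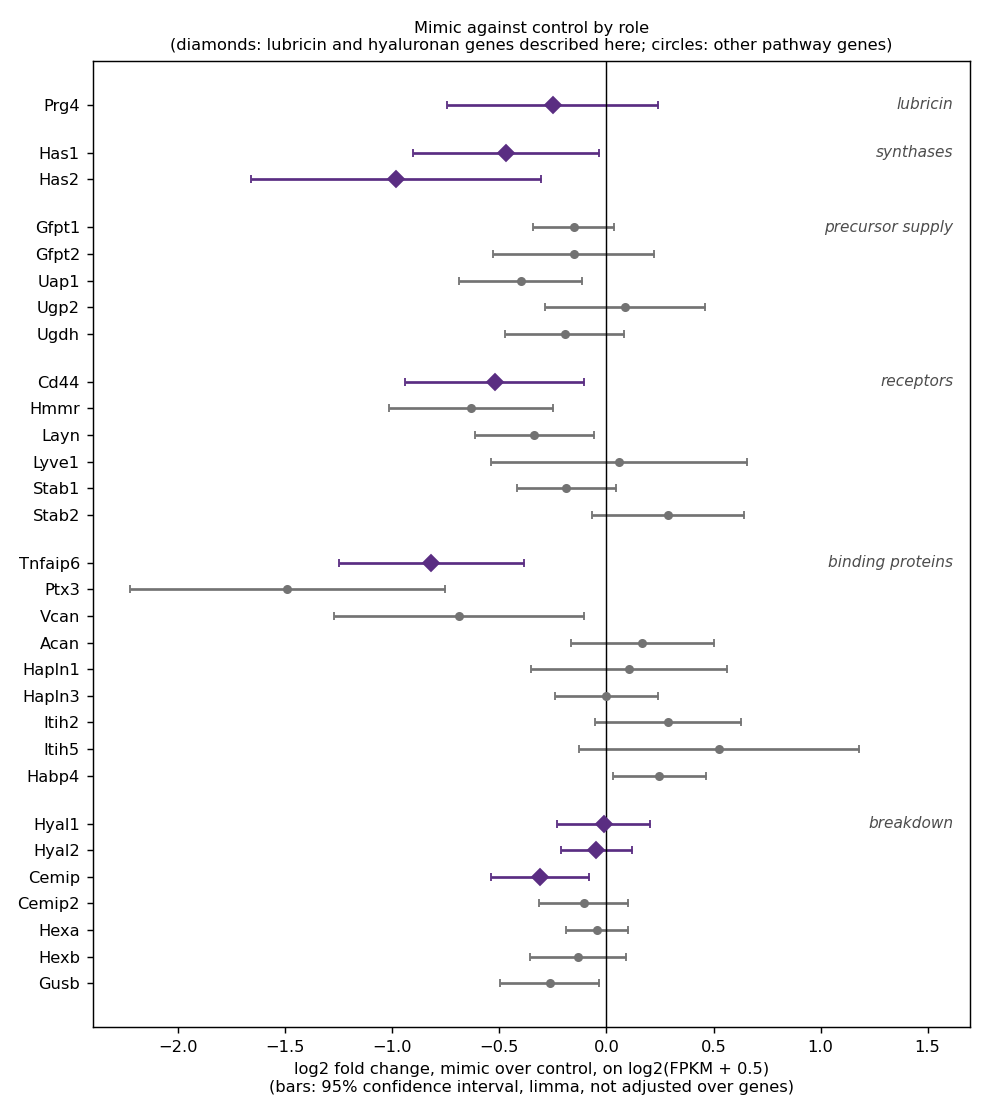
Log2 fold change, mimic over control, on log2(FPKM + 0.5), with unadjusted 95% confidence intervals, for the 8 tested genes described here (diamonds) and the 22 tested pathway genes (circles), grouped by role. Has2, Tnfaip6 and Ptx3 lie farthest to the left and Hyal1 and Hyal2 lie at 0 with narrow intervals; no gene passed over all genes tested.

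The sign of the fold change held for 6 of the 8 genes when each library was left out in turn, and the size moved with single libraries of both groups. Has2 ran from -1.17 without mimic replicate 4 to -0.69 without control replicate 5. Tnfaip6 ran from -0.97 without mimic replicate 4 to -0.68 without mimic replicate 1, and Has1 from -0.59 without mimic replicate 4 to -0.32 without control replicate 3. Cemip ran from -0.37 without control replicate 5 to -0.24 without control replicate 3. Prg4 ran from -0.48 without control replicate 2 to -0.080 without control replicate 3, a spread wider than its value. Hyal1 and Hyal2 crossed 0. Of the pathway genes, Ptx3 (-1.93, limma adjusted p = 0.0168) and Hmmr (-0.82, limma adjusted p = 0.0388) passed without control replicate 2, where 1.51% of all genes tested passed as lower in mimic ankles. Uap1 was -0.25 without control replicate 3, Gfpt1 -0.075 and Gusb -0.17 without control replicate 5, and Itih2 0.19 without control replicate 2.

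**Figure D4:**
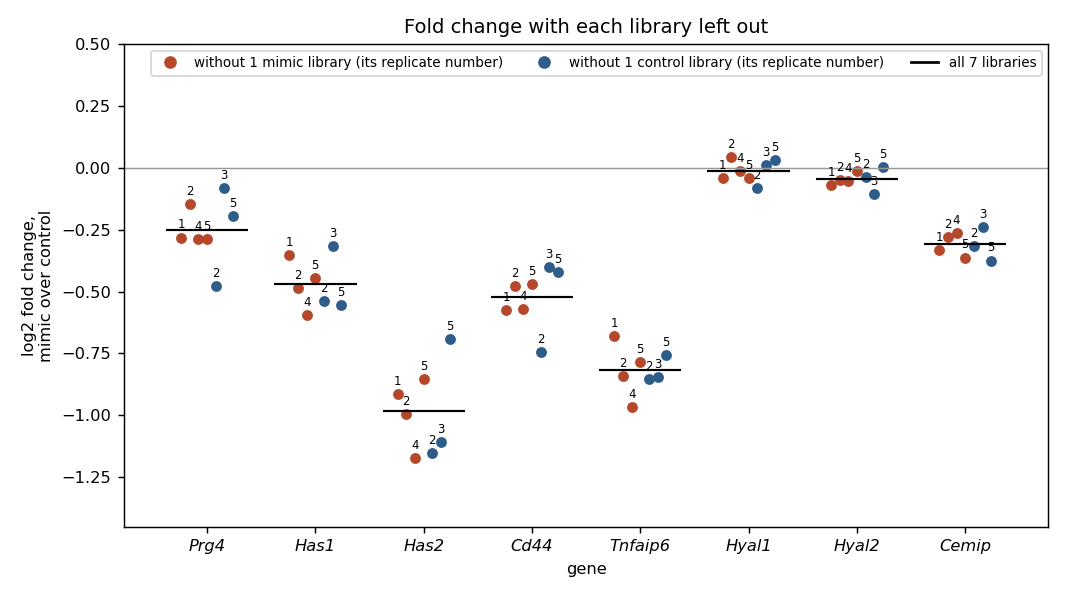
Log2 fold change, mimic over control, of the 8 tested genes with each library left out (points, labelled by the replicate number left out) and with all 7 libraries (black lines). The points stay below 0 for Prg4, Has1, Has2, Cd44, Tnfaip6 and Cemip, and the largest shifts of Prg4, Has2 and Cd44 come with a control left out.

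Markers of other cells in the ankle also differed between libraries. All 10 neutrophil markers had a lower mean in mimic ankles; their summed level ran from 1336 to 3429 FPKM in mimic ankles and from 3121 to 6349 FPKM in control ankles. For 11 markers of sublining and other fibroblasts the summed level was 18188 to 19315 FPKM in mimic ankles and 16267 to 18178 FPKM in control ankles, with 6 of the 11 higher on average in mimic ankles. Of 8 markers of lining fibroblasts, cells that secrete lubricin, 7 had a higher mean in mimic ankles, while their sum overlapped at 692 to 874 FPKM in mimic and 624 to 889 FPKM in control ankles. Of 10 markers of cartilage, whose surface chondrocytes also secrete lubricin, 9 had a higher mean in mimic ankles. Their sums were 847 to 1003 FPKM in mimic and 738 to 886 FPKM in control ankles. Of 5 tendon markers, 4 had a higher mean in mimic ankles, with sums of 1225 to 1496 FPKM in mimic and 1112 to 1341 FPKM in control ankles. The 10 macrophage markers overlapped as well, at 1207 to 1610 FPKM in mimic and 1357 to 1537 FPKM in control ankles. The 10 skeletal muscle markers all had a higher mean in mimic ankles. Their sums were uneven and overlapped, at 2713 to 9598 FPKM in mimic and 1163 to 6714 FPKM in control ankles. All 7 adipocyte markers had a higher mean in mimic ankles, with sums of 1112 to 1455 FPKM in mimic and 573 to 1012 FPKM in control ankles. For 5 of them every mimic library lay over every control library, as in 6.48% of all genes tested. That also held for 3 lining fibroblast, 3 sublining and other fibroblast, 3 cartilage, 3 tendon, 2 osteoblast and 2 lymphatic and sinusoidal endothelium markers. The reverse held for 2 neutrophil markers and 1 macrophage marker, as in 8.84% of all genes tested. It held too for Pdpn, which is on both the sublining and other fibroblast list and the endothelium list. Of the 6 endothelium markers, 4 had a higher mean in mimic ankles. Their sums overlapped, at 259 to 274 FPKM in mimic and 263 to 294 FPKM in control ankles. All 6 osteoblast markers had a higher mean in mimic ankles, with sums of 1007 to 1132 FPKM in mimic and 617 to 965 FPKM in control ankles. The 6 erythroid markers in the table all had a higher mean in mimic ankles. Their sums were uneven too, at 217 to 1718 FPKM in mimic and 153 to 655 FPKM in control ankles. Of all these markers, Hba-a2 of the erythroid list was the 1 listed at 0 in any library. With the mean of the neutrophil list as a covariate, Tnfaip6 had a log2 fold change of -0.80, Has2 of -0.87 and Cemip of -0.32, against -0.32 for Cd44 and -0.11 for Prg4. With the muscle list they were -0.82, -0.69, -0.35, -0.29 and -0.072, and with the sublining and other fibroblast list -0.73, -0.92, -0.38, -0.69 and -0.47. With the cartilage list standard errors were wide. Tnfaip6 was then -1.95 (SE 1.09), Has2 -3.02 (SE 1.65), Cemip 0.65 (SE 0.50), Cd44 -0.38 and Prg4 1.15 (SE 1.22). At an unadjusted limma p under 0.05 stood 5 of the 8 genes without a covariate and 3 with the neutrophil list. The muscle list left 4, the sublining and other fibroblast list 5 and the cartilage list 0. Over all 13418 genes tested, the counts at that level were 2356 without a covariate, 1360 with the neutrophil list and 1534 with the muscle list. They were 2997 with the sublining and other fibroblast list and 268 with the cartilage list, so the count over all genes moved as well. The part of these cells in the differences was not tested further.

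Over the 7 libraries, the gene most like Prg4 in its pattern of log2(FPKM + 0.5) was Dock10 (Pearson r = 0.995), followed by Uhmk1 (0.988) and Eif5 (0.985). The nearest gene to Tnfaip6 was Arid5a (0.977), to Has1 Arid5b (0.985), to Has2 Nek6 (0.988), to Cd44 Rnf44 (0.995), to Hyal1 Sdk1 (0.978), to Hyal2 Kctd17 (0.974) and to Cemip Tnfrsf13b (0.974). Likeness was ranked over the 13418 tested genes, passing over predicted genes and pseudogenes. The named genes are the highest of so many over 7 points, so a high r can arise from that choice alone. The 7 points also share libraries and depth, so these values are given as a description.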

How the data were processed

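Gene-level FPKM values for 7 libraries were deposited by the authors in a single table, with joined exon lengths, per the file headers. The tools DESeq2 1.14.1, Subread, featureCounts, STAR 2.5.2b and bcl2fastq 2.20 and the builds mm10 and GRCm38 are listed, with no role given, per the submitters' processing notes. FPKM multiplied by length gave whole reads for 100% of values above 0 (within 0.01 of a read), which set the depth. Over 21 library pairs the chi-square per gene was at least 20.5, so no pair agreed within sampling noise.

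From there, limma 3.58.1 (R 4.3.3) was fitted with a mean-variance trend to log2(FPKM + 0.5) over 13418 genes averaging 1 FPKM or more, group being the single factor. The added 0.5 understates changes of low genes. P-values are 2-sided and adjusted by Benjamini and Hochberg. The fit was tested on simulated data. Symbols came from RefSeq (GRCm38.p6) and matched 25275 of 27179 numbers. Python 3.11.15 and pandas 2.3.3 served for tables. The members and lists were chosen with earlier results of these data known. Named were all 9 genes, the 10 pathway genes with the smallest p, and the genes with the most similar pattern, 3 for Prg4 and 1 for each other gene tested, passing over predicted genes and pseudogenes. Alternatives were other pseudocounts (0.1 and 1), filters (none, or a mean of 5 FPKM), median-of-ratios and quantile scaling, no variance trend, library weights, limma-voom on recovered reads, a replicate block, marker list means as covariates and leaving out each library.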

Additional observations from a re-analysis of the deposited data

Results flagged for a closer look

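Prg4 in mimic replicate 2 was the one value among 19 genes checked (the 9 genes and the 10 named pathway genes) that stood apart within the 4 mimic ankles. It stood at 859 FPKM, against 1140 to 1156 FPKM in the other 3, a gap of 0.948 of the group's whole range, above Dixon's 95% limit for 4 samples. Chance passes this limit in about 1 of 20 groups. Without mimic replicate 2 the log2 fold change of Prg4 was -0.15.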

How the results depend on the processing

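The number of genes passing moved from 0 to 318 without control replicate 2 (203 of them lower in mimic ankles, 1.51% of all genes tested), with 1 of the 8 lubricin and hyaluronan genes and 2 of the 22 pathway genes among them, and to 1 with no filter on low values and to 1 with the neutrophil covariate; leaving out any other library gave 0. Signs reversed for values near 0 and with the cartilage covariate, where standard errors were wide: with it Prg4 was 1.15 (SE 1.22), Cemip 0.65 (SE 0.50) and Hyal1 0.74 (SE 0.51), while the median of all genes shifted to 0.11. Hyal1 was also 0.071 with the muscle covariate, 0.0034 with the neutrophil covariate, and between -0.083 and 0.044 over single omissions (0.011 without control replicate 3, 0.033 without control replicate 5). Hyal2 was 0.0050 with the muscle covariate, and between -0.11 (without control replicate 3) and 0.0033 (without control replicate 5) over single omissions. Has3 stayed higher by 0.18 to 0.69 under every alternative run. Mimic and control replicates 2 deviated together from their group means (r = 0.54) and replicates 5 oppositely (r = -0.43). Pairs with unlike numbers ran from -0.52 to 0.53. With so few shared numbers, these values cannot settle whether the numbers pair the ankles. With the replicate number as a block, 0 genes passed, and Has2 was -1.29, Tnfaip6 -0.86, Cemip -0.20 and Prg4 -0.18. On recovered reads limma-voom passed 0 genes, with 2365 at an unadjusted p under 0.05. Other pseudocounts and scalings changed no sign among the 8 genes.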
